A study of Homo sapiens with 12 samples.

Results

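Nicotinic acetylcholine receptors are ligand-gated cation channels built from several subunits around a central pore, and each subunit has a gene of its own. Poly-A RNA-seq levels of 9 subunit genes (CHRNA3, CHRNA4, CHRNA5, CHRNA7, CHRNA9, CHRNB1, CHRNB2, CHRNB3 and CHRNB4) were followed upon depletion of the RNA-binding protein IGF2BP1. The 9 genes were taken by name from the 58174 genes listed for each cell line, and the family was chosen by its BE(2)-C values, because CHRNA3 was high there and lower upon knockdown. Levels and fold changes of these genes in BE(2)-C are therefore given as a description without a test. The Hep-G2 comparison was not the basis of that choice and was tested. Members and lists were, however, chosen with earlier results of these data known.

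The study depleted IGF2BP1 in cancer cell lines to find transcripts that depend on it. BE(2)-C is a cloned neuroblastoma line of the sympathetic lineage and Hep-G2 is a liver cancer line. Each line was transfected with a control siRNA (siC) or with a pool of siRNAs directed at IGF2BP1 (siI1), at 25 nM in BE(2)-C and 15 nM in Hep-G2, and RNA was taken 72 h later. Each of the 4 groups held 3 libraries, 12 in all, and every group was an unselected culture of 1 established line. Reads assigned to genes ranged from 12852988 to 15721210 per library in BE(2)-C and from 13398903 to 15176939 in Hep-G2. Values are FPKM, fragments scaled by gene length and library size, so that levels of different genes can be set side by side per length. The table of each line was normalised on its own, so levels in BE(2)-C and Hep-G2 are placed next to each other without a test.

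In sympathetic ganglia, fast transmission runs through receptors that contain the CHRNA3 and CHRNB4 products, often with the CHRNA5 product as an accessory subunit. CHRNB2 encodes the common beta subunit of brain receptors, which pairs with the CHRNA4 product, and CHRNA7 encodes a subunit that forms channels by itself. CHRNB1 belongs to the receptor of the muscle endplate, and CHRNA9 is best known from hair cells of the inner ear. The assembled receptors bind acetylcholine released by cholinergic nerve endings, and nicotine is the alkaloid that gave them their name.

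CHRNA5, CHRNA3 and CHRNB4 lie next to each other on chromosome 15. In GENCODE annotation of hg38, CHRNA5 (ENSG00000169684) covers chr15:78565520-78595269 on the plus strand, CHRNA3 (ENSG00000080644) chr15:78593052-78621295 on the minus strand, and CHRNB4 (ENSG00000117971) chr15:78624111-78727754 on the minus strand. The canonical CHRNB4 transcript starts 20.2 kb from that of CHRNA3. The gene spans of CHRNA3 and CHRNA5 run into each other over 2218 nt at their 3' ends, and 198 of these are exonic in both genes. The libraries were strand-specific, but the strand setting of the read counting is not given in the sources used here, so reads from these 198 nt cannot be assigned to one gene with certainty. CHRNA7 (ENSG00000175344), at chr15:31923438-32173018, shares sequence with the fusion gene CHRFAM7A: 37.8% of the 100-nt windows of its canonical transcript also occur in a CHRFAM7A transcript, and its values are uncertain for that reason. No 100-nt window was shared between any pair of the 9 subunits.

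RefSeq start sites (GRCh38.p14) were matched for 6 of the 9 genes: CHRNA3, CHRNA7, CHRNA9, CHRNB1, CHRNB2 and CHRNB4. Because CHRNA3 and CHRNB4 were both lower upon knockdown, their promoters are shown. The GC box GGGCGG was searched on both strands from 250 bases before to 50 bases after each start, 300 bases in all. It occurred at least once in 44.6% of 27305 promoters, and how many of these held several matches was not counted. CHRNA3 held 4 matches, beginning 46, 31, 27 and 23 bases before the start, the last 3 overlapping one another, and CHRNB4 held 3, beginning 115, 82 and 40 bases before it. The lines below give 30 bases of the CHRNA3 promoter (chr15:78621014-78621043, minus strand, which a longer CHRNA3 transcript includes in its first exon) and 85 bases of the CHRNB4 promoter (chr15:78641246-78641330, minus strand, outside annotated exons of the gene), both 5' to 3' with complete matches in capitals. The CHRNB4 match that begins 40 bases before the start runs past the end of its line, which therefore shows 2 in capitals.
CHRNA3: cCCGCCCcgcgcacgcCCGCCCGCCCGCCC
CHRNB4: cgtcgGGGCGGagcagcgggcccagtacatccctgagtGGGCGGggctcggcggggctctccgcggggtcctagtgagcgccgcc
CHRNA7 held 6 matches and CHRNB1 held 2, while none was found in the windows of CHRNB2 and CHRNA9. The E-box CAGCTG, present in 17.7% of promoters, was found only in that of CHRNB4 among the 6, once, 233 bases before the start. The wider E-box CANNTG, which includes it, was present in all 6 and in 68.9% of promoters. Such matches describe the letters in the window and no binding was measured.

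IGF2BP1 itself was measured first to check the labels. In BE(2)-C, IGF2BP1 (ENSG00000159217) stood at FPKM 21.3, 20.6 and 21.6 with control siRNA and at 4.85, 4.75 and 4.87 with siI1, a log2 fold change of -2.11 ± 0.05 (SE, n = 3 per group). In Hep-G2 it stood at 48.5, 46.6 and 50.8 upon siC and at 12.6, 10.7 and 10.7 upon siI1, a log2 fold change of -2.10 ± 0.08. Every siI1 library was below every siC library of its line, as the labels state. All log2 fold changes are siI1 against siC on the log2(FPKM + 0.1) scale, where low values show less than their full change.

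The Hep-G2 siI1 replicate 2 library stood apart in some genes of low level. It held 9 genes with at least 10 reads each, 313 reads together, that had 0 reads in the other 5 Hep-G2 libraries, and no other Hep-G2 library held such a gene. One of them was CRABP1 with 30 reads, and COL1A1 had 107 reads there against 19 to 39 in the others. The cause was not tested. Without this library IGF2BP1 stood at -2.06 in Hep-G2, and Hep-G2 results that change without it are given below.

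CHRNA3 was by far the most abundant of the 9 subunits in BE(2)-C, and with its cluster partners CHRNB4 and CHRNA5 it was lower upon IGF2BP1 depletion, whereas CHRNB2 was close to its control level. CHRNA3 stood at FPKM 132.5, 136.5 and 131.1 upon siC and at 62.7, 60.8 and 63.1 upon siI1, which rested on 4097 to 9065 reads. The groups lay far apart, and the siC values had an SD of 2.80. The log2 fold change was -1.10 ± 0.04, a ratio of the means of 0.466. By mean level CHRNA3 ranked 312 of 19799 protein-coding genes in siC libraries of this line and 667 in siI1 libraries. In bulk RNA, fewer cells with the transcript and less transcript per cell cannot be told apart, here or in any other value below.

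CHRNB4, which supplies the beta subunit of the ganglionic receptor, stood at FPKM 19.7, 18.2 and 18.7 upon siC and at 10.0, 9.61 and 10.3 upon siI1. All 3 knockdown libraries were below the controls, and the log2 fold change was -0.91 ± 0.05. CHRNA5, the accessory subunit, stood at 12.4, 13.0 and 13.8 upon siC and at 7.89, 8.81 and 8.71 upon siI1. Here too the groups did not overlap, with a log2 fold change of -0.62 ± 0.07 that was the smallest of the 3 cluster genes. The level of CHRNA3 over that of CHRNB4 came to 6.74, 7.52 and 7.02 with control siRNA and to 6.24, 6.33 and 6.11 with siI1. Against CHRNA5, the same ratio was 10.7, 10.5 and 9.50 upon siC and 7.94, 6.91 and 7.25 upon siI1. Both ratios were lower in every knockdown library than in any control library.

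**Figure D1:**
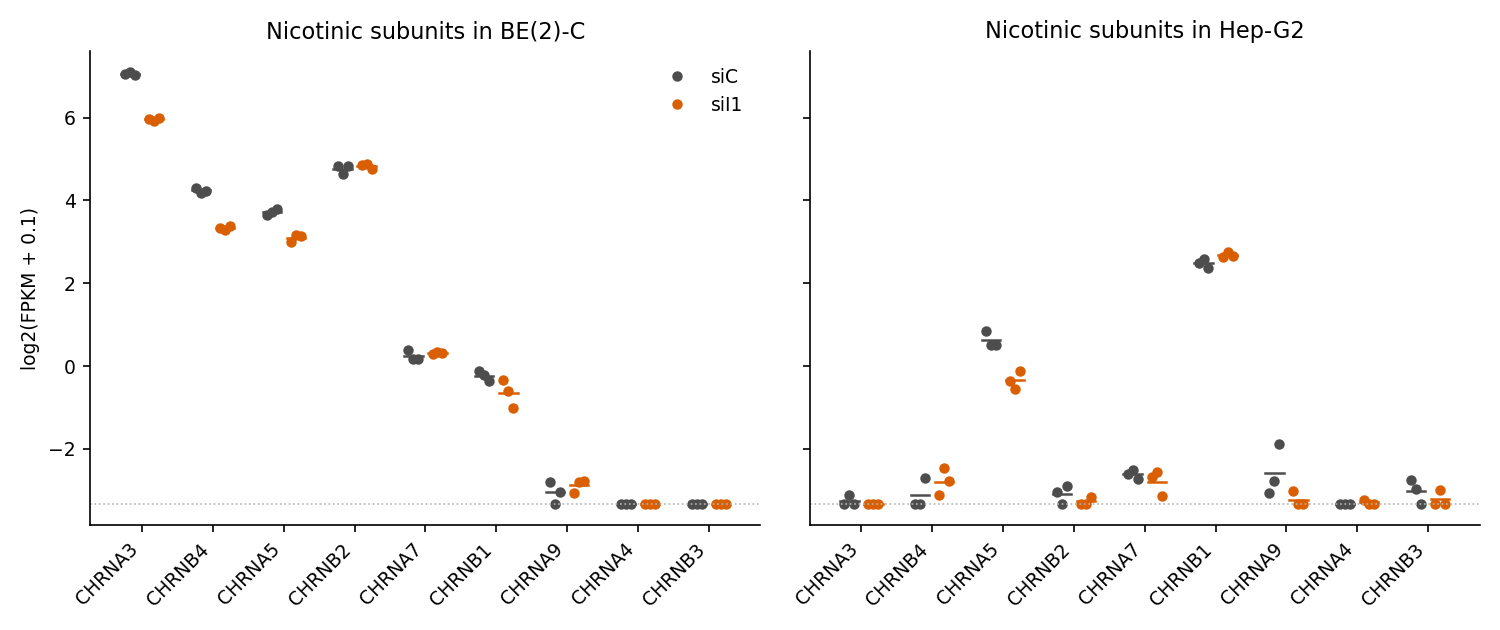
Levels of the 9 subunits as log2(FPKM + 0.1) in BE(2)-C (left) and Hep-G2 (right); each point is 1 library, short lines are means of 3 libraries, grey is siC, orange is siI1, and the dotted line marks FPKM 0. CHRNA3, CHRNB4 and CHRNA5 are separated by group in BE(2)-C, and in Hep-G2 CHRNB1 and CHRNA5 lie highest.

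The remaining subunits of BE(2)-C showed no clear separation of the groups. CHRNB2 (ENSG00000160716) stood at FPKM 28.5, 24.8 and 28.3 upon siC and at 28.8, 29.6 and 27.2 upon siI1. The groups overlapped and the log2 fold change was 0.07 ± 0.07. CHRNA7 stood at 1.21, 1.02 and 1.02 upon siC and from 1.12 to 1.16 upon siI1, again overlapping, with a log2 fold change of 0.07 ± 0.14. CHRNB1 (ENSG00000170175), known from the muscle receptor, stood at 0.821, 0.757 and 0.677 upon siC and at 0.687, 0.556 and 0.399 upon siI1. It rested on 24 to 51 reads per library and its groups overlapped, with a log2 fold change of -0.42 ± 0.22. CHRNA9 had 0 to 2 reads per library. CHRNA4 and CHRNB3 had 0 reads in all 6 libraries, which allows, at 3 reads, an FPKM of up to 0.0212 for CHRNA4 and 0.0905 for CHRNB3. Such limits cover counting error only.

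Of the 9 subunits, 6 passed the filter for low values in BE(2)-C (3 or more libraries at FPKM 0.1 or above). As the family was selected on this contrast, no count of calls is given for it. Among all 18656 genes tested there, limma put 28.2% past an adjusted p of 0.05, 14.8% lower and 13.3% higher, with a median log2 fold change of 0.02.

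The order of levels in BE(2)-C was CHRNA3, CHRNB2, CHRNB4, CHRNA5, CHRNA7, CHRNB1 and CHRNA9, in siC as in siI1 libraries. No 2 neighbours among these overlapped in their range over 3 libraries, in either group. By ratio CHRNB4 and CHRNA5 came closest upon knockdown, with ranges of 9.61 to 10.3 and 7.89 to 8.81. The summed FPKM of the 9 genes came to 195.1, 194.3 and 193.6 upon siC and to 111.3, 110.6 and 110.9 upon siI1. CHRNA3 made up 67.9%, 70.3% and 67.7% of that sum upon siC and 56.3%, 55.0% and 56.9% upon siI1. CHRNB2 made up 14.6%, 12.8% and 14.6% upon siC and 25.9%, 26.8% and 24.5% upon siI1. CHRNB4 made up 10.1%, 9.34% and 9.64% upon siC and 9.03%, 8.69% and 9.30% upon siI1. As the sum itself was lower upon siI1, a share can go up at an unchanged level. CHRNB4 stood at 0.690, 0.732 and 0.660 of the CHRNB2 level upon siC and at 0.349, 0.325 and 0.379 upon siI1.

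**Figure D2:**
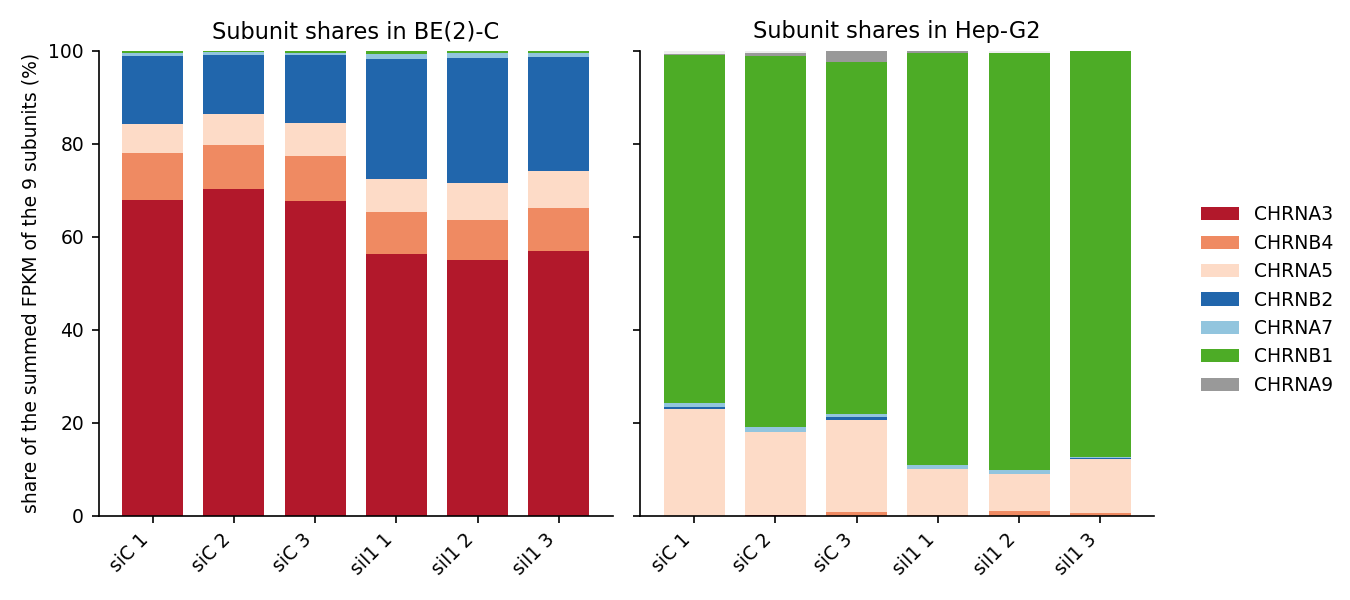
Share of each subunit in the summed FPKM of the 9 genes (vertical axis, percent), 1 bar per library, for BE(2)-C (left) and Hep-G2 (right). In BE(2)-C, CHRNA3 holds 67.7% to 70.3% in siC and 55.0% to 56.9% in siI1 libraries, and in Hep-G2 most of the sum is CHRNB1.

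Hep-G2 cells carried hardly any transcript of the ganglionic pair, and CHRNB1 was their main subunit gene. CHRNA3 had 1 read in 1 of 6 Hep-G2 libraries and 0 in the other 5. CHRNB4 had 0 to 6 reads per library, CHRNB2 0 to 3 and CHRNB3 0 to 2. CHRNA9 had 0 to 8 reads, CHRNA7 4 to 22, and CHRNA4 had 1 read in 1 library. These 7 genes did not pass the filter, and below CHRNA5 the order of levels rested on so few reads that most neighbours overlapped in their ranges. CHRNB1 stood at FPKM 5.55, 5.90 and 5.07 upon siC and at 6.08, 6.68 and 6.22 upon siI1, from 324 to 421 reads per library. CHRNA5 stood at 1.71, 1.32 and 1.33 upon siC and at 0.674, 0.588 and 0.826 upon siI1, from 31 to 96 reads.

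CHRNA5 fell in Hep-G2, with all 3 knockdown libraries below all 3 controls. Its log2 fold change was -0.96 ± 0.19 (95% interval -1.42 to -0.51), and limma gave an adjusted p of 0.0063 over 19436 genes. Without siI1 replicate 2 it stood at -0.86 (limma adjusted p = 0.022). CHRNB1 was higher in every knockdown library, but its log2 fold change of 0.20 ± 0.08 (95% interval 0.00 to 0.39) missed the threshold with a limma adjusted p of 0.091, and it stood at 0.16 without siI1 replicate 2. Among all genes tested in Hep-G2, 44.8% were past the threshold, 23.0% lower and 21.9% higher, and 1 of the 2 subunits tested was past it. The scaling of the Hep-G2 libraries bears on CHRNB1: with all libraries brought to the same sum of FPKM, the median of all genes shifted by -0.15, the share of calls that were higher went from 48.8% to 35.4%, and CHRNB1 stood at 0.03. With median centring CHRNB1 stood at 0.29 and was past the threshold, at a limma adjusted p of 0.028. CHRNA5 remained past it under both scalings, at -1.12 and -0.87.

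**Figure D3:**
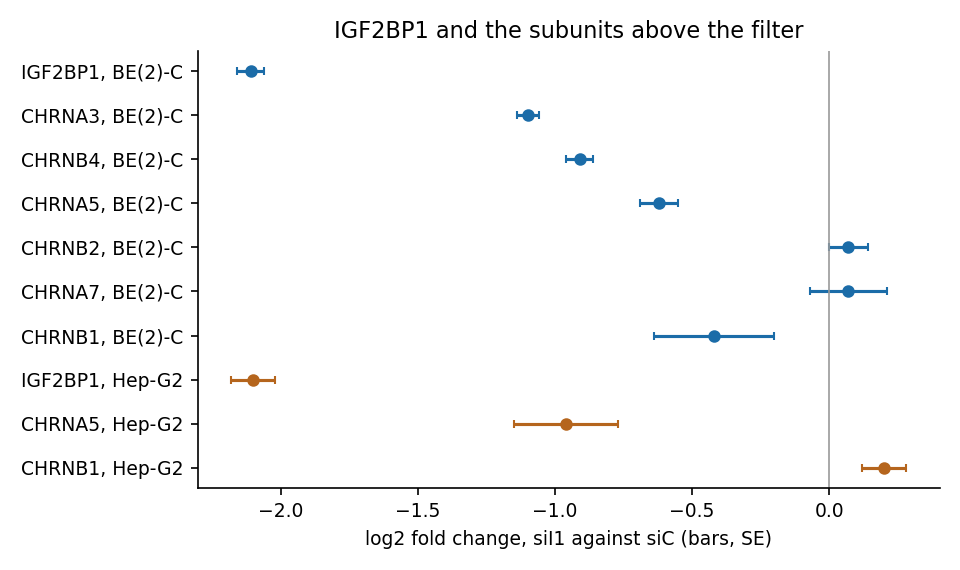
Log2 fold changes of siI1 against siC (horizontal axis) for IGF2BP1 and the subunits that passed the filter, with points for estimates and bars for SE, BE(2)-C in blue and Hep-G2 in brown, from 3 libraries per group. CHRNA3, CHRNB4 and CHRNA5 lie between -1.10 and -0.62 in BE(2)-C, and CHRNA5 lies at -0.96 in Hep-G2.

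IGF2BP proteins are known to bind RNA around the letters CAU followed by A, C or U. In the 3' untranslated regions of the canonical transcripts these tetramers, read as CATA, CATC or CATT, were counted as a description. CHRNA3 held 20 in 1295 nt, or 15.4 per kb. CHRNB4 held 13.7 and CHRNA5 13.4 per kb. The median of 12546 protein-coding genes tested in BE(2)-C was 11.7 per kb. CHRNB2 held 7.8, CHRNB1 6.1 and CHRNA7 16.4 per kb. CHRNA9, CHRNB3 and CHRNA4, which did not pass the filter in BE(2)-C, held 18.7, 11.4 and 6.5 per kb. After correction for length, the study saw only slight differences in such motifs between its candidate targets and unchanged transcripts. Binding was not measured.

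The cell lines carried the markers of their labels. In BE(2)-C, 8 of 8 sympathetic neuroblast markers had a mean FPKM of at least 1, with MYCN the most abundant at 1778, and their summed FPKM was 3758, 3508 and 3536 in siC and 3989, 3866 and 3934 in siI1 libraries. Hepatocyte markers had at most 4 reads in any BE(2)-C library. In Hep-G2, 6 of 6 hepatocyte markers were at a mean FPKM of at least 1, led by ALB at 4619. Of the 8 neuroblast markers, 0 reached that mean there and 3 had 0 reads, HAND2 and CHGA among them. The 2 that were tested there were DBH and CHGB, the most abundant of the 8 at a mean FPKM of 0.284. CHGB was called lower in limma (-0.79), with limits given below. The summed hepatocyte markers of Hep-G2 stood at 6981, 7049 and 6939 upon siC and at 11535, 13203 and 13353 upon siI1, with 4 of the 6 higher and TTR and AFP lower in limma. ALB, at 0.95, lost its call with no filter on low values (adjusted p = 0.073 in limma). The summed mesenchymal markers there stood at 16.3, 19.7 and 17.1 upon siC and at 3.53, 5.67 and 3.94 upon siI1. That fall was FOSL1 (-2.33 ± 0.14), whereas SNAI2 stood at 0.76 ± 0.27, not called in limma but called without the mean-variance trend (0.76), with median centring (0.85) and in voom (0.91). COL1A1 stood at 0.23 ± 0.48, and at -0.31 without siI1 replicate 2. Upon knockdown in BE(2)-C, the neuroblast markers moved apart: HAND2, PHOX2A and DBH were among those that fell, and CHGB, TH and CHGA rose. MYCN stood at 0.19 ± 0.06, not called in limma (adjusted p = 0.057). It was called higher in 5 of 16 alternatives, among them both scalings and voom. CHGB, a protein of secretory granules, rose by 0.82 ± 0.04 and TH, the first enzyme of catecholamine synthesis, by 0.61 ± 0.09 on the log2 scale. Of the 5 mesenchymal markers, TWIST1 and SNAI2 rose in BE(2)-C in limma, and voom also called COL1A1 (0.68), which stood at 0.60 ± 0.29 in limma. The summed level of all 5 was 60.2, 64.9 and 62.2 in siC and 73.7, 77.1 and 76.2 in siI1 libraries. TWIST1 was the most abundant at 65.1, and none of the 5 was at 0 in all 6 libraries. PRRX1 and FOSL1 had at most 2 and 3 reads per library and were not tested there. SNAI2 was no longer past the threshold without siI1 replicate 3, at a log2 fold change of 0.36. The part of these marker changes in the subunit levels was not tested. Of 4 Schwann cell markers, 2 were tested in BE(2)-C and 0 were called in limma. Of 5 skeletal muscle markers, 0 passed the filter there, so none could be called.

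Transcription factors of the sympathetic lineage and the general factors SP1 and SP3 formed the list of possible regulators. Of 13 genes, 11 were tested in BE(2)-C, and limma put 6 lower and 0 higher, with a median log2 fold change of -0.35. Beside this list and those below, 14.8% of all genes tested in BE(2)-C were lower and 13.3% higher (median 0.02), and 23.0% lower and 21.9% higher in Hep-G2 (median 0.01). The voom fit called 7 of the 11, with SP3 added as higher at 0.33. HAND2, a basic helix-loop-helix factor of sympathetic neurons, stood at FPKM 291.3, 290.4 and 274.1 upon siC and at 174.0, 172.2 and 168.1 upon siI1, a log2 fold change of -0.73 ± 0.04 (limma adjusted p = 1.7e-04). INSM1, at 18 to 81 reads per library, fell by 1.31 ± 0.26. Other factors of the lineage were not past the threshold: GATA2, at a mean FPKM of 263 in siC libraries, had a log2 fold change of 0.07 ± 0.05 and GATA3 of 0.02 ± 0.04. SP1, which binds GC boxes, stood at 0.00 ± 0.05. In Hep-G2, 5 of the 13 factors were tested, with SP1 lower (-0.61 ± 0.10) and GATA2 and TBX2 higher (each 0.44 ± 0.08). HAND2 had 0 reads in every Hep-G2 library.

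Neighbouring genes on chromosome 15 were compared to see whether the change of the cluster reached beyond it. Of 9 neighbours, 8 were tested in BE(2)-C, 1 was lower and 1 higher, and their median log2 fold change was 0.08. The nearest, PSMA4, a proteasome subunit at -80.6 kb from the CHRNA3 start (negative on the side of CHRNA5), stood at -0.05 ± 0.09 with overlapping groups. IREB2, at -182.8 kb, stood at 0.18 ± 0.08, not past the threshold in limma but past it in voom (0.18). CRABP1, a retinoic acid-binding protein at -280.6 kb, stood at FPKM 151.7, 122.2 and 131.3 upon siC and at 67.4, 63.7 and 63.2 upon siI1, a log2 fold change of -1.05 ± 0.08 (limma adjusted p = 3.2e-04). MORF4L1, on the other side at 251.9 kb, rose by 0.23 ± 0.06, a call that ended without the mean-variance trend (0.23), with a replicate block (0.23), without siC replicate 3 (0.22) or without siI1 replicate 1 (0.21), 2 (0.24) or 3 (0.22). In Hep-G2, 7 neighbours were tested, of which CTSH (0.58 ± 0.09) and WDR61 (0.32 ± 0.09) rose and IREB2 fell (-0.52 ± 0.13), with a median of 0.18. WDR61 lost its call with equal sums of FPKM (0.15), without the mean-variance trend (0.32), and without siC replicate 1 (0.33), 2 (0.34) or 3 (0.28) or siI1 replicate 2 (0.30) or 3 (0.25). IREB2 lost its call without siC replicate 1 (-0.47), siI1 replicate 2 (-0.44) or siI1 replicate 3 (-0.46).

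**Figure D4:**
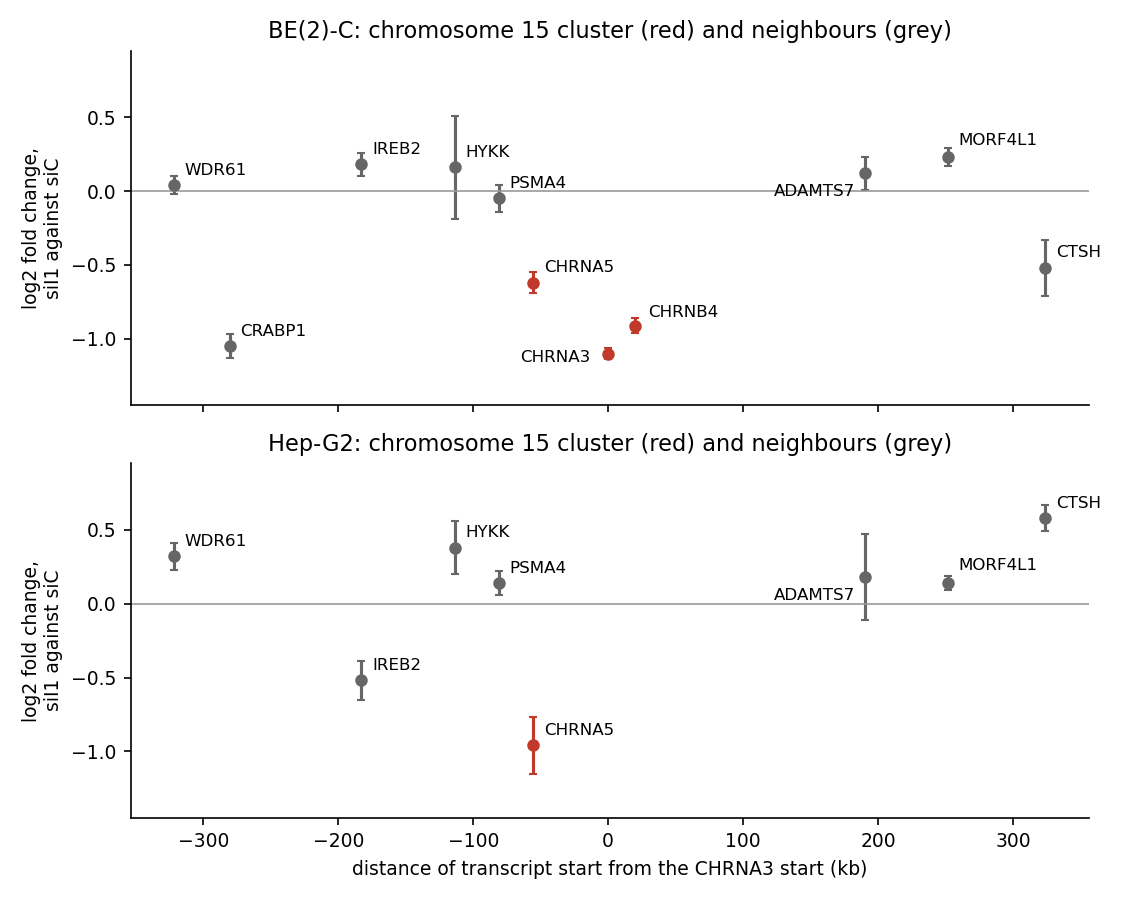
Log2 fold change of siI1 against siC (vertical axis, bars are SE, 3 libraries per group) against the distance of each transcript start from that of CHRNA3 in kb, for the tested genes of the chromosome 15 cluster (red) and neighbours (grey) in BE(2)-C (top) and Hep-G2 (bottom). In BE(2)-C the 3 cluster genes and CRABP1 lie lowest, with PSMA4 between them at -0.05.

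Genes that make, store, cleave or sense acetylcholine were listed next. Of 12 genes, 11 were tested in BE(2)-C: 4 fell and 1 rose, with a median log2 fold change of -0.29. The vesicular acetylcholine transporter SLC18A3 stood at FPKM 60.7, 56.9 and 56.9 upon siC and at 15.1, 17.8 and 18.4 upon siI1. Its log2 fold change of -1.76 ± 0.08 (limma adjusted p = 8.6e-05) exceeded that of CHRNA3. SLC18A3 lies inside CHAT, the gene of the enzyme that makes acetylcholine, but shares no exonic base with it. CHAT was low, at 18 to 54 reads per library, and fell by 0.86 ± 0.25 with a limma adjusted p of 0.040, a call that ended with no filter or a replicate block (-0.86 each) and without siC replicate 1 (-0.85) or 3 (-0.70) and without siI1 replicate 2 (-0.76) or 3 (-0.80). The muscarinic receptor CHRM1 stood at 8.66, 7.46 and 7.64 upon siC and at 3.36, 2.96 and 3.55 upon siI1, a log2 fold change of -1.24 ± 0.09. CHRM2, another muscarinic receptor, rose by 0.66 ± 0.14. The voom fit called 6 of the 11, with CHRM3 added as higher at 0.90. CHRM3, named after its value was seen, stood at 0.66 ± 0.29 in limma and was not called there. BCHE, at a mean FPKM of 19.2 in siC and 21.5 in siI1 libraries, stood at 0.16 ± 0.06. It was called higher only with median centring (0.20). PRIMA1, a membrane anchor of acetylcholinesterase named here after its value was seen, fell by 0.29 ± 0.08, and its call ended in 10 of 16 alternatives, among them both scalings, the replicate block, no filter (-0.29), and the fits without siC replicate 1 (-0.25) or 2 (-0.29) and without siI1 replicate 1 (-0.26) or 3 (-0.26). The choline transporter SLC5A7, also named after its value was seen, had 0 reads in both lines.

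In Hep-G2, 3 of these 12 genes were tested and all had a mean FPKM under 1. PRIMA1 had a log2 fold change of -1.30 ± 0.28 from 3 to 22 reads per library, and passed the filter only through its siC libraries. COLQ, the collagen tail of acetylcholinesterase at the endplate, stood at 0, 0 and 0.0650 upon siC and at 0.337, 0.181 and 0.340 upon siI1, and passed the filter only through its siI1 libraries. Its fitted log2 fold change of 1.68 ± 0.38 ranged from 0.33 to 4.04 over the alternatives. A gene that enters by the group where it is high is bound to differ, so these 2 calls carry little weight, although limma without the filter also put PRIMA1 (adjusted p = 0.016) and COLQ (adjusted p = 0.013) past the threshold. SLC18A3 and CHAT had 0 reads in Hep-G2.

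Other Cys-loop receptors share the fold of the nicotinic receptor and respond to serotonin, GABA, glycine or zinc. Of 30 genes, 10 were tested in BE(2)-C, of which 4 were called lower and 1 higher, with a median of -0.20. The serotonin receptor gene HTR3A stood at FPKM 28.8, 23.3 and 25.2 upon siC and at 12.2, 12.5 and 13.4 upon siI1, a log2 fold change of -1.01 ± 0.08 (limma adjusted p = 3.9e-04). Its partner HTR3B stood at 3.61, 3.61 and 3.21 upon siC and at 1.59, 1.59 and 1.03 upon siI1, a log2 fold change of -1.27 ± 0.18. The GABA receptor subunit gene GABRQ, named after its value was seen, fell by 0.81 ± 0.14. The 1 higher gene, GABRP, went from at most 0.0904 to between 0.218 and 0.406 and passed the filter only through its siI1 libraries, so its call carries little weight. Its log2 fold change of 1.59 ± 0.37 was past the threshold without the filter (limma adjusted p = 0.030) but not with a pseudocount of 0.01 (3.09). In Hep-G2, 4 of the 30 genes were tested and 2 rose, HTR3B by 1.13 ± 0.19 and GABRE by 0.58 ± 0.16, the latter not past the threshold with equal sums of FPKM (0.42) or without siC replicate 1 (0.60), 2 (0.61) or 3 (0.52). GABRR3, named after its value was seen, stood at -0.88 ± 0.31 from 2 to 16 reads and passed the filter only through its siC libraries. It was not called in limma, but was called lower with no filter (-0.88), without the mean-variance trend (-0.88), with equal sums of FPKM (-0.95) and in voom (-1.77). HTR3A had 0 reads in all Hep-G2 libraries.

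Proteins that help assemble or tune nicotinic receptors showed no call in BE(2)-C. Of 16 genes, 9 were tested there, and limma put none past the threshold and none at an unadjusted p under 0.05. The voom fit on recovered reads called 1, PICK1, as did limma without siC replicate 3 (-0.42). Their median log2 fold change was -0.02. LY6E, of the Ly6 family of receptor modulators, stood at a mean FPKM of 61.2 in siC and 60.2 in siI1 libraries, or -0.02 ± 0.06 on the log2 scale. In Hep-G2, 9 of the 16 were tested with a median of 0.22: UBQLN1 (-0.42 ± 0.08) and UNC50 (-0.30 ± 0.06) fell, and PICK1 (0.37 ± 0.10) and VSNL1 (0.22 ± 0.06) rose. The call of PICK1 ended with equal sums of FPKM (0.20), without siC replicate 1 (0.32) or 3 (0.37) and without siI1 replicate 2 (0.38) or 3 (0.28). That of VSNL1 ended without siC replicate 1 (0.23), 2 (0.23) or 3 (0.20) and without siI1 replicate 2 (0.19), with equal sums of FPKM (0.05) and without the mean-variance trend (0.22). With equal sums of FPKM, 0 of the 16 genes were called higher in Hep-G2.

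The 8 nicotinic genes outside the 9 were low in both lines. In BE(2)-C 3 were tested, in limma 0 were past the threshold, 0 had an unadjusted p under 0.05 and the voom fit called 0, with a median of 0.13. The most abundant was CHRFAM7A, at a mean FPKM of 1.52 in siC and 1.67 in siI1 libraries, or 0.13 ± 0.15 on the log2 scale. In Hep-G2, 3 were tested, in limma 0 were past the threshold and 0 had an unadjusted p under 0.05, with a median of 0.30. The voom fit called 1, CHRNE, a subunit of the adult muscle receptor named after its value was seen, with 11 to 40 reads per library, as did limma without siC replicate 2 (1.08).

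**Figure D5:**
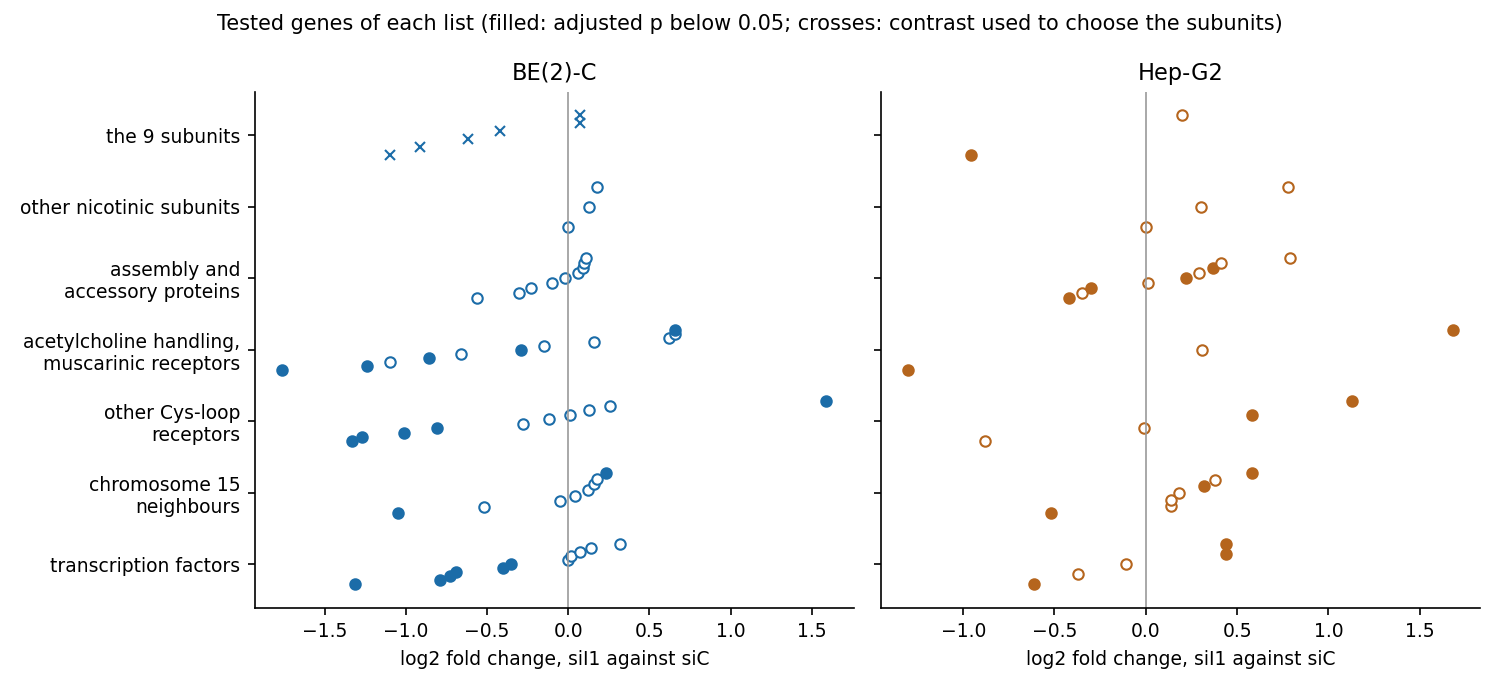
Log2 fold change of siI1 against siC (horizontal axis) of every tested gene, by list, in BE(2)-C (left) and Hep-G2 (right); filled circles passed an adjusted p of 0.05 in limma, open circles did not, and crosses mark the contrast on which the subunits were chosen. In BE(2)-C the lowest point is SLC18A3 at -1.76, and the assembly proteins hold no filled circle.

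Among 10035 protein-coding genes of BE(2)-C with a mean FPKM of at least 1, those most like CHRNA3 over the 6 libraries were sought by the distance between their log2 values, each taken relative to the siC mean of the gene. The closest were MCHR1 (distance 0.117), SMARCD2 (0.125), ASL (0.154), LRRC8A (0.160) and C5orf15 (0.160). CHRNB4 came at rank 77 with a distance of 0.354 and CHRNA5 at rank 517 with 0.852. SMARCD2 went from a mean FPKM of 59.6 to 28.3 and MCHR1 from 8.69 to 4.07. In Hep-G2, which was not used to find them, C5orf15 (-2.26 ± 0.07), LRRC8A (-1.74 ± 0.05) and SMARCD2 (-1.20 ± 0.09) fell, while ASL stood at -0.15 ± 0.10 and MCHR1 at -0.22 ± 0.42 (0.06 without siI1 replicate 2) without passing the threshold in limma. With equal sums of FPKM, ASL was past it at -0.32.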

How the data were processed

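Poly-A RNA was sequenced as strand-specific paired-end libraries (150 bp). Per the study's methods and the submitters' processing notes, the authors clipped reads with cutadapt 1.14, aligned them to hg38 with HISAT2 2.1.0, counted them with featureCounts 1.5.3 on Ensembl annotation and normalised with edgeR 3.30.3 (TMM). The deposited values are FPKM per gene and library, 1 table per line. The authors' own fold changes, p-values and false discovery rates in these tables were not used.

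FPKM multiplied by gene length fell on whole multiples of 1 step per library for 100.0% of values within 0.01, which gave the read numbers. The authors' FPKM were tested with limma 3.58.1 in R 4.3.3 (mean-variance trend, log2(FPKM + 0.1), Benjamini-Hochberg over all tested genes, 0.05), for genes that reached FPKM 0.1 in 3 or more of the 6 libraries, each line by itself. The code was tested on simulated data. Gene positions came from GENCODE 44, promoters from RefSeq, and other steps used Python 3.11.15, pandas 2.3.3, numpy 2.4.6 and matplotlib 3.10.9. The alternatives were 2 pseudocounts, 2 filters, no trend, 2 scalings, a threshold of 0.01, a replicate block, each library left out, and limma-voom on recovered reads. Members and lists were chosen with earlier results of these data known. Named genes were all 9 subunits, IGF2BP1, up to 4 called genes per list and line by size of the fold change, list genes with a mean FPKM of at least 1, the 5 genes most like CHRNA3, and the fixed markers; exceptions are marked. Some genes of the lists and markers are not reported here.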

Additional observations from a re-analysis of the deposited data

Results flagged for a closer look

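Of 34 list and marker genes tested in both lines, 5 had all siI1 libraries on one side of the siC libraries in BE(2)-C and on the other side in Hep-G2 (14.7%, beside 11.3% of all 15362 genes tested in both), and the difference between the lines was not tested for any of them. The serotonin receptor gene HTR3B changed by -1.27 in BE(2)-C and 1.13 in Hep-G2 (log2), and TBX2, a T-box factor named here after its values were seen, by -0.35 and 0.44, all 4 past the threshold. CHGB had 0.82 in BE(2)-C and -0.79 in Hep-G2, where it had 10 to 29 reads per library and lost its call with no filter (-0.79), median centring (-0.70) or a replicate block (-0.79), without siC replicate 1 (-0.75), 2 (-0.76) or 3 (-0.86) and without siI1 replicate 2 (-0.71) or 3 (-0.79). In the chromosome 15 neighbourhood, CTSH had -0.52 in BE(2)-C and 0.58 in Hep-G2, and IREB2 0.18 and -0.52, with only the Hep-G2 values past the threshold in limma on all libraries. Voom also called CTSH (-0.56) and IREB2 (0.18) in BE(2)-C, and limma called CTSH there without siI1 replicate 1 (-0.69). In Hep-G2, IREB2 lost its call without siC replicate 1 (-0.47), siI1 replicate 2 (-0.44) or siI1 replicate 3 (-0.46).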

How the results depend on the processing

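Each result was refitted under the alternatives. The fold changes of CHRNA3 (-1.11 to -1.06), CHRNB4 (-0.93 to -0.85) and CHRNA5 (-0.66 to -0.57) in BE(2)-C and of CHRNA5 in Hep-G2 (-1.12 to -0.53) are given as ranges over all 16. The subunits called in Hep-G2 went from 1 to 2 with median centring. The order of levels by FPKM over the library sum kept 18 of 18 positions in BE(2)-C and 16 of 18 in Hep-G2. This scaling moves all genes of a library alike, so the order within a library could not change and the kept positions say little about stability.

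At an adjusted p below 0.01 from limma, 2614 genes were called in BE(2)-C (1475 lower, 1139 higher) and 5721 in Hep-G2 (2727 higher). Leaving out 1 library left 3431 to 4455 genes called in BE(2)-C, of them 1495 to 2129 higher. Without siI1 replicate 2, which stood apart in some low genes, 6923 were called in Hep-G2 (6851 to 9428 over all libraries left out, the highest without siI1 replicate 1, which alone raised the count), with 2 calls for assembly proteins (0 higher) and 1 for chromosome 15 neighbours. At 0.01, acetylcholine handling had 2 calls in BE(2)-C and 1 in Hep-G2, assembly proteins 2 in Hep-G2, chromosome 15 neighbours 1 in each line, and other Cys-loop receptors 1 in Hep-G2.

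Acetylcholine handling in BE(2)-C (5 calls) had 3 with no filter on low values and 3 to 5 with 1 library left out. In Hep-G2 (2 calls) it had 0 with a filter of FPKM 1 and 1 without any single library, in each case because PRIMA1, COLQ or both no longer passed the filter. Assembly proteins had 1 call with limma-voom and 0 to 1 with a library left out in BE(2)-C (0 calls), and 2 to 5 with a library left out in Hep-G2 (4 calls). Chromosome 15 neighbours in BE(2)-C (2 calls) had 1 without the mean-variance trend, 4 with limma-voom and 1 to 2 with a library left out. In Hep-G2 (3 calls) they had 5 with median centring and 1 to 5 with a library left out. Other Cys-loop receptors in Hep-G2 (2 calls) had 1 to 2 with a library left out. Other nicotinic subunits in Hep-G2 (0 calls) had 1 with limma-voom and 0 to 1 with a library left out.

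With the replicate block, acetylcholine handling had 3 calls and chromosome 15 neighbours 1 in BE(2)-C, and other nicotinic subunits 1 in Hep-G2; no other count moved past the limit set for a change. Among named genes it ended the calls of CHAT, PRIMA1 and MORF4L1 in BE(2)-C and CHGB in Hep-G2 and added CHRNE and LY6E in Hep-G2. With equal sums of FPKM, Hep-G2 calls higher went from 2 to 0 for assembly proteins and from 2 to 1 for chromosome 15 neighbours and for other Cys-loop receptors. Residuals of equally numbered siC and siI1 libraries correlated by 0.02, -0.01 and 0.00 in BE(2)-C and 0.06, 0.04 and -0.01 in Hep-G2. The cause of these shifts was not tested.

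The limits are 3 libraries per group, 1 siRNA pool, 1 time point and bulk RNA. Genes with few reads rest on the pseudocount. Both scalings assume a property of the whole library that was not measured.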

Other observations

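CRABP1 had 30 reads in the Hep-G2 siI1 replicate 2 library, an FPKM of 2.07, and 0 reads in the other 5 Hep-G2 libraries. In the same library COL1A1 had 107 reads against 19 to 39, and PRRX1 had 5 and TWIST1 2 against 0 in the other 5. In all, 9 genes with at least 10 reads, 313 reads together, were found in that Hep-G2 library alone; the cause was not tested.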
